A study of Mus musculus with 7 samples.

Results

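Prostaglandin synthesis in the mouse seminal vesicle was followed through 7 genes, *Ptgs1*, *Ptgs2*, *Ptges*, *Ptgds*, *Hpgds*, *Ptgis* and *Hpgd*, of the 30406 genes counted in every library. They were chosen by their place in the pathway and not by their values. The tissue was profiled with droplet-based single-cell RNA-seq in 23 wild type male mice deposited as 7 samples, and each transcript was counted as a unique molecular identifier (UMI), a barcode that marks 1 captured RNA molecule.

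Prostaglandins are short-lived lipid signals made from arachidonic acid, which phospholipases release from membranes. Cyclooxygenases, encoded by *Ptgs1* and *Ptgs2*, convert it to the common precursor prostaglandin H, and each terminal synthase then turns that precursor into 1 kind of prostaglandin. The seminal vesicle gave the prostaglandins their history in reproductive biology, since semen was among the first sources in which they were found. *Ptgs1* is the form usually called constitutive, and *Ptgs2* is an inducible form that behaves as an early response gene in many cells. *Ptges* makes prostaglandin E, *Ptgds* and *Hpgds* are unrelated enzymes that both make prostaglandin D, *Ptgis* makes prostacyclin, and *Hpgd* begins prostaglandin breakdown.

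The aging pool held 10 C57BL/6J mice on chow, with 2 mice at each of 3, 20 and 28 months of age without drug and 2 more at each of 20 and 28 months given rapamycin. The diet pool held 8 FVB/NJ mice of 3 months, with 2 on each of 4 diets (control, high fat, low protein and caloric restriction). The first 3 of these diets were fed for 9 weeks after weaning. The caloric restriction mice were housed singly, so that housing and diet cannot be told apart there. There were also 3 single-mouse FVB/NJ libraries of the same age on control, high fat and low protein diets. A further 1 young (3 months) and 1 old (18 months) FVB/NJ single-mouse library came from mice on control diet. The mice inside the pools were separate animals, and their age, diet and drug are read from the deposited matrix names and the study's methods.

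After filtering, 40306 of 53352 cells were kept. Each mouse had between 971402 and 14720617 UMIs in the pools and between 24806120 and 46326504 in the single libraries. The young and old libraries stood apart from the rest. The *Svs* genes, which encode the main seminal vesicle secretions, made up 0.000607% to 0.00110% of their UMIs against 7.87% to 64.0% in the other 21 mice, and 3645 of their cells carried the epididymal genes *Lcn8*, *Lcn9* or *Gpx5* at 0.5% or more of their UMIs. Levels are therefore given over the 21 mice with *Svs* RNA, and levels in the young and old libraries are described apart. The tests of a class against other cells included the young and old libraries for every class but secretory cells, which they lacked. Between 6 and 30 cell barcodes were shared by any 2 libraries.

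Cells were assigned to 6 classes by gates on a few genes. Secretory cells had 30% or more of their UMIs on 7 *Svs* genes, and the other gates were *Krt5* and *Krt14* for basal cells, *Col1a1* and *Col1a2* for fibroblasts, *Pecam1* for endothelial cells, the C1q genes for macrophages and *Myh11* for smooth muscle. Over the 21 mice this gave 9455 secretory cells, 2139 basal cells in 19 mice, 2645 fibroblasts, 412 endothelial cells in 18 mice, 1272 macrophages and 396 smooth muscle cells in 11 mice, counting mice with at least 10 cells of a class. Markers left out of the gates were present in each class: *Trp63*, *Krt15* and *Krt17* summed to at least 2310 counts per 1000000 class UMIs (CPM) in the basal cells of every mouse, *Dcn*, *Lum* and *Pdgfra* to at least 3179 in fibroblasts, and *Csf1r*, *Adgre1* and *Cd68* to at least 676 in macrophages. The least sum of a mouse was 15389 CPM for the secretory, 1462 CPM for the endothelial and 22500.5 CPM for the smooth muscle markers in their own class. Some secretory RNA was counted in every class, since the 7 *Svs* genes had medians of 6888 CPM in endothelial cells, 7441 CPM in fibroblasts, 9696 CPM in smooth muscle, 17256 CPM in macrophages and 21485 CPM in basal cells, and the part of such carried-over RNA in the shares of cells with a UMI was not tested.

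In RNA, the members were not all highest in the same class, yet cyclooxygenase and synthase genes shared classes. Fibroblasts passed the test as higher for *Ptgs2*, *Ptges* and *Ptgis*, and macrophages for *Ptgs1*, *Ptgs2* and *Hpgds*. *Ptgs2* was highest in fibroblasts (median 582 CPM) and also read in macrophages and basal cells, *Ptges* was highest in basal cells (213 CPM) with fibroblasts next, *Ptgis* was read in fibroblasts (171 CPM) and smooth muscle (116 CPM), and *Hpgds* in macrophages (199 CPM). *Ptgds* and *Hpgd* were the members that passed the test as higher in secretory cells, and the direction of *Hpgd* there depended on how the libraries were scaled. The plot of all 7 genes by class and mouse shows these levels.

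Each class was tested against all other gated cells of the same mouse with edgeR's quasi-likelihood test on summed counts, and a gene was called at an adjusted p below 0.05. The other gated cells were those of the other classes and of further gates, among them T or NK, B, prostate-like and epididymis-like principal cells. Their UMIs were summed, so cells with many UMIs weighed most. In the control diet single library, secretory cells held 44081033 of 46326504 UMIs. The counts of members called are read against the share of all genes called. In secretory cells 2 of 7 were higher and 5 lower, where 29.5% and 49.6% of the 9081 genes tested were. In basal cells 2 of 6 tested were higher and 3 lower (background 26.8% and 33.7%), in fibroblasts 3 and 3 of 6 (29.1% and 37.3%), and in endothelial cells 0 and 5 of 6 (22.7% and 39.5%). In macrophages 3 of 6 were higher and 2 lower (31.6% and 40.5%), and in smooth muscle 1 and 2 of 6 (15.3% and 23.3%). Because so many genes differed between the classes, these counts alone do not set the members apart from other genes.

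**Figure D1:**
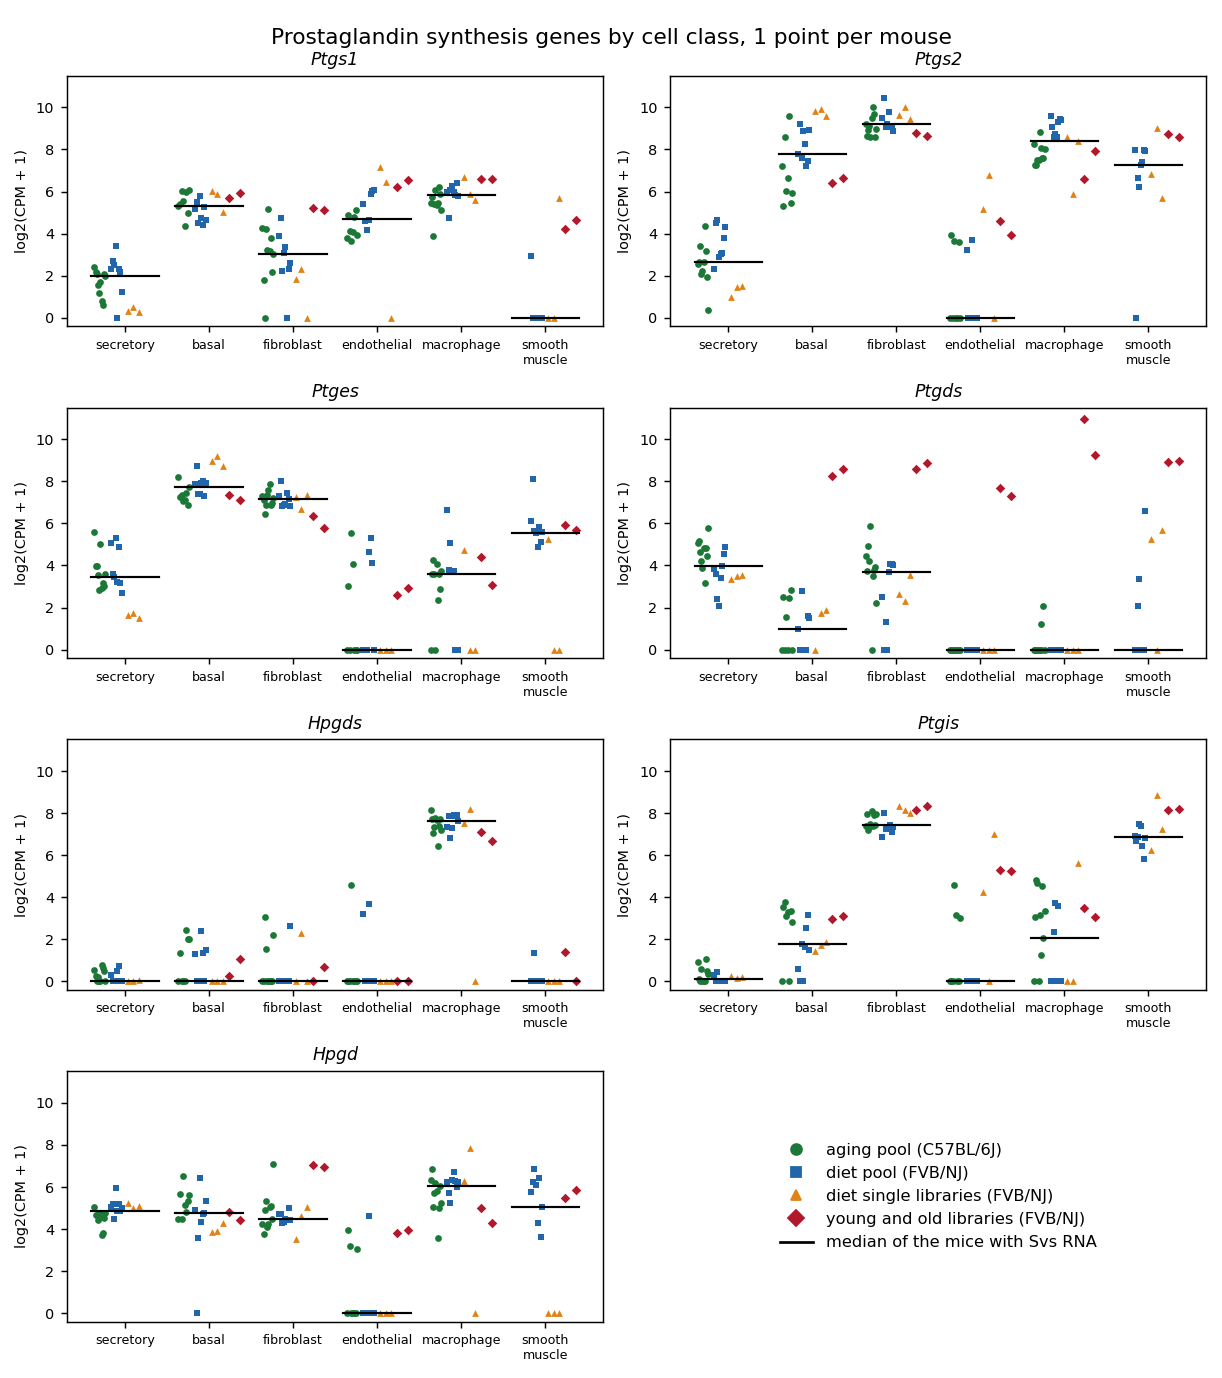
Level of each gene as log2(CPM + 1) of the class's UMIs (vertical axis) in 6 cell classes (horizontal axis), with 1 point per mouse, coloured by library set, and a bar at the median of the mice with Svs RNA. Hpgds is high in macrophages alone, Ptgis in fibroblasts and smooth muscle, and the red diamonds of the young and old libraries stand far above the other mice for Ptgds in every class in which they have cells.

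*Ptgs2* lies at chr1:150100031-150108227 on the plus strand (GRCm38), and *Ptgs1* at chr2:36230426-36252272 on the plus strand, where the gene model *Gm43621* overlaps it on the opposite strand. *Ptgs2* in fibroblasts had a lowest level of 382 CPM, a median of 582 CPM and a highest level of 1384 CPM over the 21 mice. Macrophages had a median of 338 CPM (58.2 to 783), basal cells 222 CPM (38.6 to 959) and smooth muscle 150 CPM (0 to 514). Every mouse thus had *Ptgs2* in fibroblasts, in macrophages and, where they were captured, in basal cells. In secretory cells the median was 5.31 CPM, with a highest value of 23.9 CPM below the lowest basal value, and in endothelial cells it was 0 CPM, with 11 of 18 mice at 0.

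*Ptgs2* was higher in fibroblasts by a log2 difference of 2.53 ± 0.17 (SE; adjusted p = 2.21e-13), in 23 of 23 mice, and in macrophages by 1.31 ± 0.18 (adjusted p = 1.94e-07), in 20 of 23. It was lower in secretory cells by a log2 difference of -3.49 ± 0.32 and in endothelial cells by -3.98 ± 0.33, in all 21 and all 20 mice compared. Basal cells (0.53 ± 0.34, adjusted p = 0.188) and smooth muscle (-0.15 ± 0.39) did not pass. The order of the upper classes was clearest at its top: fibroblasts exceeded macrophages in 17 of 21 mice, whereas macrophages exceeded basal cells in 12 of 19 and basal cells exceeded smooth muscle in 8 of 11.

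The level of *Ptgs2* in basal cells differed between the library sets, although the aging pool alone spread widely. The 3 diet single libraries had 900, 959 and 763 CPM (control, high fat, low protein), the diet pool a median of 261 CPM (149 to 597) and the aging pool a median of 80.8 CPM, with a lowest value of 38.6 and a highest of 771. The 3 single libraries and the diet pool shared strain and age. They differed in library format, counting software and UMIs per basal cell, which cannot be told apart, and the part of these in the levels was not tested. Strain, age and pool differ together between the other sets and cannot be told apart there.

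*Ptgs1* had a different order. Macrophages had a median of 55.3 CPM (13.8 to 104), basal cells 38.4 CPM (19.7 to 66.8), endothelial cells 25.2 CPM (0 to 142) and fibroblasts 7.25 CPM (0 to 35.4). Macrophages were above basal cells in 14 of 19 mice and basal above endothelial cells in 9 of 17, so that these neighbours overlapped. Secretory cells had 2.92 CPM (0 to 9.51), and 9 of 11 mice had no *Ptgs1* UMI in smooth muscle. *Ptgs1* passed the test as higher in macrophages (1.83 ± 0.19, adjusted p = 4.36e-10, 21 of 23 mice) and basal cells (1.24 ± 0.26, adjusted p = 0.000252, 19 of 21 mice). It was lower in secretory cells (-1.88 ± 0.31), fibroblasts (-1.28 ± 0.20) and smooth muscle (-1.90 ± 0.38), where it was too low to be tested without the young and old libraries. In endothelial cells the difference of 0.43 ± 0.28 did not pass (adjusted p = 0.183).

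*Ptges* lies at chr2:30889471-30929863 on the minus strand, with the gene model *Gm13400* overlapping on the same strand, so that reads in the overlap could count for either. In basal cells *Ptges* had a lowest level of 117 CPM, a median of 213 CPM and a highest of 583 CPM, and a median of 60.9% of basal cells per mouse had a UMI (23.8% when each cell was thinned to 1000 UMIs), against 0% of endothelial cells before and after thinning, at median depths of 5619 and 2693 UMIs per cell. In fibroblasts the median was 142 CPM (87.2 to 254), and basal cells were the higher in 16 of 19 mice. Smooth muscle had a median of 45.5 CPM (0 to 274). The other 3 classes were low, with medians of 11.1 CPM in macrophages, 10.0 CPM in secretory cells and 0 CPM in endothelial cells. *Ptges* was higher in basal cells by a log2 difference of 1.84 ± 0.27 (adjusted p = 2.95e-06), in 21 of 21 mice, and in fibroblasts by 0.73 ± 0.16 (adjusted p = 0.000262), in 20 of 23. It was lower in endothelial cells (-3.91 ± 0.31), macrophages (-2.63 ± 0.26), secretory cells (-1.52 ± 0.32) and smooth muscle (-0.85 ± 0.23). The fibroblast difference fell to 0.27 and did not pass within the diet pool alone.

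*Ptgds* lies at chr2:25466709-25470046 and *Hpgds* at chr6:65117293-65144908, both on the minus strand, with *Gm17147* on the opposite strand of *Hpgds*. *Ptgds* encodes a secreted lipocalin, and *Hpgds* a cytosolic enzyme of the glutathione transferase family, known from mast cells, macrophages and other blood-derived cells. The 2 genes were in different cells here. *Hpgds* in macrophages had a median of 199 CPM with a highest value of 291 CPM, from 860 UMIs in 1272 cells, and was at 0 only in the low protein single library, which had 17 macrophages. A median of 40.9% of macrophages per mouse had an *Hpgds* UMI, or 16.1% when each cell was thinned to 1000 UMIs, against medians of 0% in fibroblasts and endothelial cells of similar depth. In each of the other 5 classes the median level was 0 CPM, and the highest value of any mouse was 22.8 CPM, in endothelial cells.

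*Hpgds* was higher in macrophages than in the other gated cells by a log2 difference of 6.89 ± 0.30 (adjusted p = 8.34e-19), in 22 of 23 mice, and lower in secretory cells (-4.74 ± 0.29). It was too low to be tested in the other 4 classes. B cells, gated on *Cd79a*, *Cd79b* and *Ms4a1*, also held some, with 16.02, 21.4 and 59.5 CPM as the lowest, median and highest of 5 mice.

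*Ptgds* in secretory cells had a median of 14.7 CPM, with a lowest value of 3.17 and a highest of 54.3 CPM. The aging pool had 25.7 CPM (8.01 to 54.3), the diet pool 12.2 CPM (3.17 to 28.0), and the single libraries 9.19, 10.3 and 10.7 CPM on control, high fat and low protein diets. Fibroblasts had a similar level, with a median of 11.8 CPM (0 to 57.4), and secretory cells were the higher in 14 of 21 mice. Per cell the classes were far apart in depth, with a median of 37582 UMIs in secretory cells and 2809 in fibroblasts, and 1.25% of secretory cells had a *Ptgds* UMI once thinned to 1000 UMIs, against 35.6% before thinning. Basal cells had a median of 0.980 CPM, macrophages 2 UMIs in 1272 cells and endothelial cells none in 412 cells, which allows a level of up to 1.74 CPM and a share of cells with a UMI of up to 0.728% (counting error only).

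The test was scaled by trimmed means (TMM), which leaves extreme genes such as the *Svs* genes (56.5% to 65.6% of secretory cell UMIs) out of the scaling. In it *Ptgds* was higher in secretory cells by a log2 difference of 4.40 ± 0.23 (adjusted p = 2.47e-15), in 21 of 21 mice, and still by 2.34 when levels were scaled by library size alone. It was lower in basal cells (-3.47 ± 0.34), endothelial cells (-3.85 ± 0.29) and fibroblasts (-1.38 ± 0.27). The fibroblast difference was -0.40 by library size and then did not pass. Without the young and old libraries the fibroblast difference was -1.30 ± 0.30, and *Ptgds* was too low to be tested in basal and endothelial cells.

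*Ptgis* lies at chr2:167191805-167240604 on the minus strand, with *1110018N20Rik* and *Gm14291* on the opposite strand. It was a gene of the stroma. Fibroblasts had a median of 171 CPM, with a lowest level of 116 and a highest of 327 CPM, and smooth muscle had 116 CPM (56.3 to 463). Every value in these 2 classes lay above the highest in macrophages (48.3 CPM), basal cells (12.7 CPM) and secretory cells (1.07 CPM). Fibroblasts were above smooth muscle in 7 of 11 mice, so that the order of these 2 was not settled. Endothelial cells had a median of 0 CPM, with 1 mouse at 128 CPM. The endothelial gate held lymphatic cells as well, since *Prox1*, *Lyve1* and *Mmrn1* summed to a median of 1907 CPM (0 to 7796) beside 2314 CPM for the endothelial markers. In the young and old libraries the lymphatic sum was 220 to 265 CPM and endothelial *Ptgis* 37.9 and 37.0 CPM, and the part of the lymphatic cells in these levels was not tested.

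*Ptgis* was higher in fibroblasts by a log2 difference of 4.65 ± 0.30 (adjusted p = 9.67e-14), in 23 of 23 mice, and in smooth muscle by 2.44 ± 0.27 (adjusted p = 2.54e-08), in 13 of 13. It was lower in secretory (-5.76 ± 0.23), basal (-3.08 ± 0.29), endothelial (-2.02 ± 0.38) and macrophage (-1.90 ± 0.33) cells. A median of 31.3% of fibroblasts and 27.8% of smooth muscle cells had a *Ptgis* UMI, against 0% of endothelial cells.

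*Hpgd* lies at chr8:56294585-56321043 on the plus strand, with *Gm45540* overlapping on the same strand. Its medians lay close together in 5 of the classes and ran from 64.2 CPM in macrophages (0 to 233) and 31.8 CPM in smooth muscle (0 to 115) to 27.8 CPM in secretory cells (12.4 to 60.3), 26.05 CPM in basal cells (0 to 89.8) and 21.4 CPM in fibroblasts (10.4 to 138). Neighbouring classes overlapped: macrophages were above smooth muscle in 7 of 11 mice, secretory above basal cells in 11 of 19 and basal cells above fibroblasts in 10 of 19. Endothelial cells were below, with a median of 0 CPM, and fibroblasts exceeded them in 17 of 18 mice.

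*Hpgd* was higher in secretory cells by a log2 difference of 1.61 ± 0.19 (adjusted p = 3.05e-08) in 21 of 21 mice with TMM scaling, but the difference was -0.44 when scaled by library size alone, so that its direction in secretory cells depends on the scaling. It was lower in endothelial (-3.12 ± 0.36), basal (-1.17 ± 0.29) and fibroblast (-0.98 ± 0.37, adjusted p = 0.0221) cells. The basal and fibroblast differences did not pass by library size or in the aging pool alone. Without the young and old libraries the fibroblast difference was -1.43 ± 0.27.

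**Figure D2:**
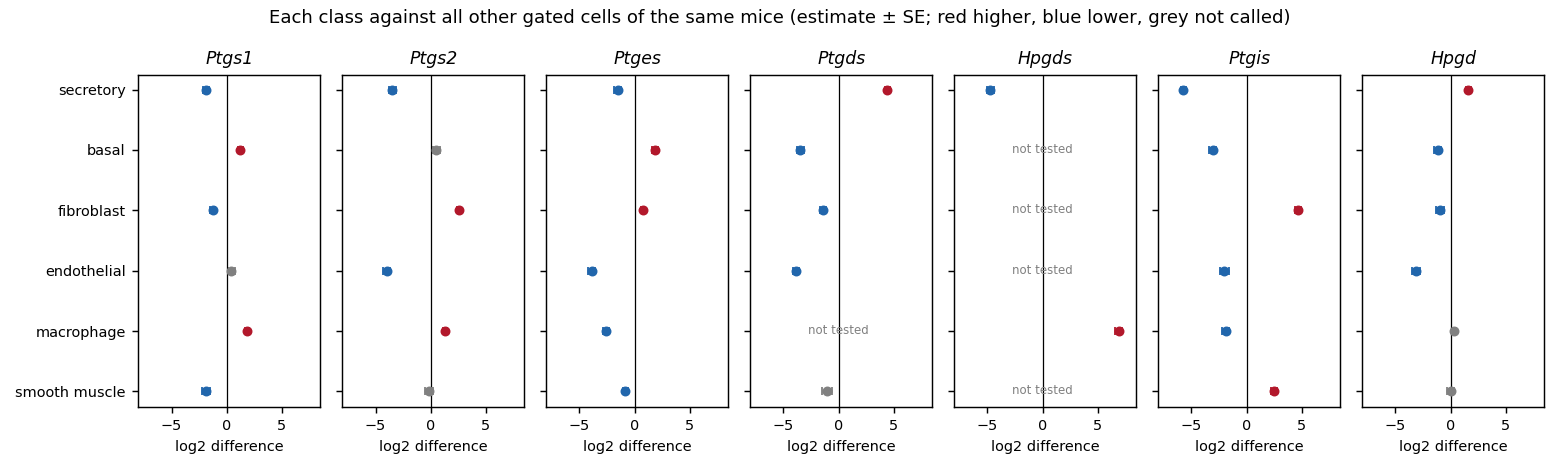
Log2 difference with its SE (horizontal axis) between each class (rows) and all other gated cells of the same mice, for each of the 7 genes (panels), red where higher and blue where lower at an adjusted p below 0.05 and grey where not called. Ptgds and Hpgd are the genes with a red point in secretory cells, and Hpgds has its red point in macrophages.

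The share of each gene's UMIs that fell in a class combines level, cell number and UMIs per cell. Here fewer cells of a class cannot be told apart from fewer captured. Secretory cells held many more UMIs per cell than the other classes. In the control diet single library, 2763 of 4211 cells were secretory and held 44081033 of 46326504 UMIs. A share of a gene's UMIs above the share of cells is therefore no sign of a higher level by itself. Over the 21 mice macrophages were 5.77% of cells and held 86.1% of *Hpgds* UMIs. Secretory cells were 42.9% of cells and held 85.3% of *Ptgds* and 66.5% of *Hpgd* UMIs. Of these cells, 8375 came from the 3 diet single libraries, and in the mice of the pools secretory cells were 10.5% of cells and held 75.9% of *Ptgds* and 32.5% of *Hpgd* UMIs. Fibroblasts, 12.0% of cells, held 55.6% of *Ptgis* and 32.7% of *Ptgs2* UMIs. No class held most of the UMIs of *Ptgs2*, *Ptges* or *Ptgs1*. *Ptges* was spread over basal cells (33.8%), prostate-like cells (15.3%), fibroblasts (13.9%) and secretory cells (13.1%), and *Ptgs1* over basal cells (26.3%), prostate-like cells (18.6%) and macrophages (16.6%).

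The prostate-like cells just named carried the prostate secretory genes *Tgm4* or *Pbsn*, and 512 of them came from 13 mice with at least 10. The paper proposes that such cells may come from adhering prostate tissue, since its staining found no strongly TGM4-positive cells in the seminal vesicle. In the prostate-like cells *Ptges* had a median of 147 CPM (91.1 to 218), *Hpgd* 76.9 CPM (30.99 to 152) and *Ptgs1* 31.2 CPM (5.27 to 62.3). *Ptgs2* was low, at 2.74 CPM (0 to 12.8), and *Ptgds*, *Hpgds* and *Ptgis* had medians of 0 CPM.

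*Ptgs2* belongs to the genes that many cells switch on rapidly after a stimulus, so the summed level of 14 early response genes (*Fos*, *Jun*, *Egr1* and others) is given beside it. The median sum was 3245 CPM in secretory cells, 13467 in basal cells, 16908 in smooth muscle, 17181 in macrophages, 21546 in fibroblasts and 29162 in endothelial cells. Fibroblasts were thus high for both. Endothelial cells had the highest sum and a *Ptgs2* median of 0 CPM, and secretory cells were low for both. Their part in the levels of *Ptgs2* was not tested.

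**Figure D3:**
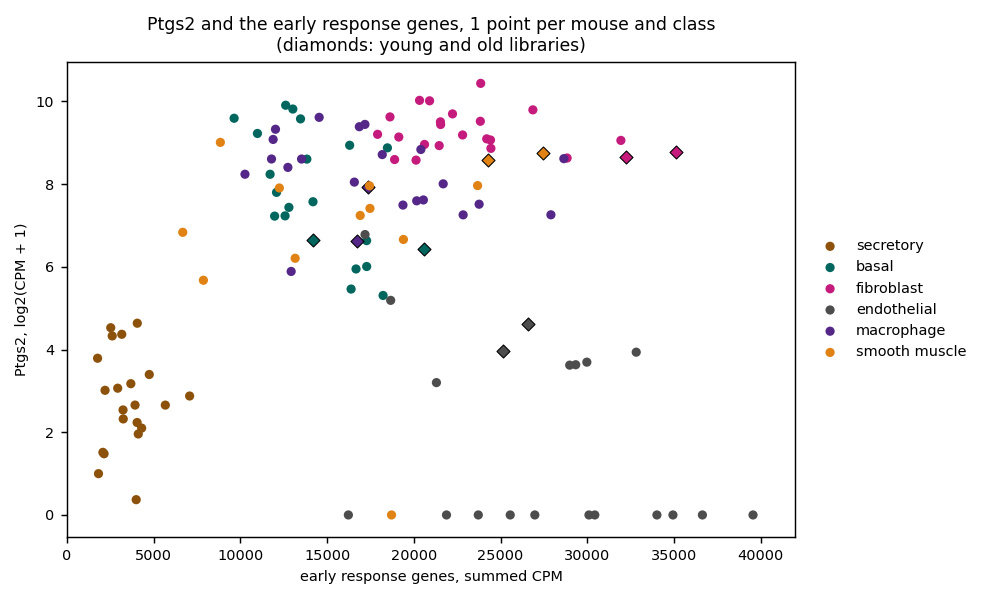
Ptgs2 as log2(CPM + 1) (vertical axis) against the summed CPM of 14 early response genes (horizontal axis), 1 point per mouse and class, with diamonds for the young and old libraries. Endothelial cells have the highest median sum (29162 CPM, against 21546 in fibroblasts), with Ptgs2 at 0 in 11 of 18 mice, while Ptgs2 in fibroblasts is at least 382 CPM in every mouse with Svs RNA.

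The wider pathway was read from a list of 37 further genes, by counts and by the largest differences in each class. In secretory cells 18 were tested, 6 higher and 9 lower, where 29.5% and 49.6% of all genes tested were. The largest rise was of *Ptgr1* (2.44 ± 0.13), which reduces prostaglandins after the *Hpgd* step. Next were *Akr1b3* (1.65 ± 0.19), an aldose reductase that can make prostaglandin F, and *Ptges2* (1.44 ± 0.15), another prostaglandin E synthase. By library size alone, under which the median of all genes in secretory cells was -2.40 in place of -0.29, *Ptgr1* stayed higher (0.40) while the differences of *Akr1b3* (-0.43) and *Ptges2* (-0.65) changed direction. Basal cells had 7 higher and 5 lower of 18 (26.8% and 33.7% of all genes), led by *Slco2a1*, the prostaglandin transporter (2.73 ± 0.19, 21 of 21 mice), *Ptger4*, a prostaglandin E receptor (0.96 ± 0.36, 14 of 21 mice), and *Pla2g4a*, the cytosolic phospholipase that frees arachidonic acid (0.86 ± 0.17).

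Fibroblasts had 4 higher and 12 lower of 18 (29.1% and 37.3% of all genes), with *Akr1b8* (2.34 ± 0.26), *Pla2g4a* (1.49 ± 0.14) and *Cbr3* (0.72 ± 0.22) leading. Macrophages had 6 higher and 4 lower of 11 (31.6% and 40.5%), led by *Pla2g2d*, a secreted phospholipase (8.41 ± 0.29), *Tbxas1*, thromboxane synthase (7.51 ± 0.35), and *Ltc4s*, leukotriene C4 synthase (5.62 ± 0.29). Smooth muscle had 3 higher and 7 lower of 17 (15.3% and 23.3%), led by *Ptger3*, a prostaglandin E receptor (1.45 ± 0.43). Endothelial cells had 1 higher and 12 lower of 19 (22.7% and 39.5%), the higher one being *Abcc4*, an exporter of prostaglandins (1.68 ± 0.26). The median log2 difference over the list was -0.11, -0.04, -0.77, -1.41, 0.93 and -0.32 in secretory, basal, fibroblast, endothelial, macrophage and smooth muscle cells, against -0.29, -0.08, -0.09, -0.28, -0.13 and -0.16 over all genes tested.

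The genes most like each member were ranked by Pearson's r of log2(CPM + 1) over 121 sums per mouse and class, among 9849 genes. The sums share libraries and class makeup, so the values describe these data only. *Hpgds* had the closest company, *Cd300ld*, *Hk3* and *F13a1* (r = 0.94 for each). *Ptgis* was nearest to *Col6a2* (0.88), *Cpxm2* (0.87) and *Tcf21* (0.87), and these 2 members had the highest values of the 7. For *Ptges* the nearest were *F3* (0.81), *Bmpr1a* (0.80) and *Egfr* (0.77). For *Ptgs2* the nearest were *Sdc4* (0.81), *Smim3* (0.81) and *Axl* (0.80), and for *Ptgs1* they were *Klf6* (0.80), *Tmem176a* (0.75) and *Tmbim6* (0.75). *Hpgd* had no close match, with *Reps2* at 0.62. The nearest gene to *Ptgds*, *Slc38a5*, had r = 0.68 over all sums but 0.26 over the 111 sums of the mice with *Svs* RNA.

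No member passed the test for diet or age in any class in which it was tested. In endothelial cells no member was tested for diet or age, and in smooth muscle none was for high fat diet or age. High fat diet was tested in 14 pairs of member and class against control, with 3 mice a group, and 0 passed the edgeR quasi-likelihood test, 0 had an unadjusted p below 0.05 (2.97% of all gene tests did) and DESeq2 called 0. The background was 0.00547% of 18269 gene tests over 6 classes. The log2 differences lay between -0.60 and 0.76, with a median SE of 0.27.

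Low protein diet also gave 0 calls of 15 pairs by either tool (background 0.0% of 17933 tests), with 4 at an unadjusted p below 0.05, as were 3.21% of all gene tests. These were *Ptgs2* in secretory cells (1.18 ± 0.35), *Ptgds* in secretory cells (0.57 ± 0.20), *Ptges* in secretory cells (-1.04 ± 0.33) and *Ptgs2* in fibroblasts (-0.72 ± 0.25). In fibroblasts *Ptgs2* stood at 535 and 465 CPM in the pool and 694 CPM in the single library on low protein, and at 733, 1384 and 788 CPM on control. No pair passed the adjustment over all genes.

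Caloric restriction, with 2 mice a group, gave 0 calls of 20 pairs over 5 classes by either tool (background 0.223% of 22872 tests). There were 4 with an unadjusted p below 0.05, all lower under restriction, and 9.04% of all gene tests had such a p. *Ptgds* in secretory cells was at 4.23 and 3.17 CPM under restriction, from 11 UMIs and 1 UMI, and at 13.4 and 11.03 CPM on control, from 57 and 4 UMIs (-2.004 ± 0.455, adjusted p = 0.141). *Ptges* in basal cells was at 169 and 169.6 CPM against 234 and 428 CPM (-0.88 ± 0.30, adjusted p = 0.375). *Ptgs2* in fibroblasts was at 531 and 582 CPM against 733 and 1384 CPM (-0.86 ± 0.29, adjusted p = 0.349), and *Ptges* in fibroblasts differed by -0.70 ± 0.28 (adjusted p = 0.483). Of these 4, *Ptgds* in secretory cells passed without the second control mouse (-2.09) or the second restricted mouse (-1.91), and *Ptgs2* in fibroblasts without the first control mouse (-1.18).

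Age in the aging pool was fitted as a trend per month with rapamycin as a covariate, and 0 of 16 pairs passed by either tool (background 0.0% of 21993 tests), with 6 at an unadjusted p below 0.05, as were 6.07% of all gene tests. *Hpgd* in macrophages was at 78.8 and 115 CPM at 3 months, at 32.2 and 52.3 CPM at 20 months and at 10.9 and 31.3 CPM at 28 months without drug, and at 71.7 and 55.6 CPM and 64.2 and 37.0 CPM in the rapamycin mice of 20 and 28 months (-0.086 ± 0.017 log2 per month, adjusted p = 0.132). The counts behind each of these values were 7 to 31 UMIs. *Hpgds* in macrophages went from 280 and 208 CPM at 3 months to 87.0 and 166 CPM at 28 months without drug, with the 4 rapamycin mice between 145 and 215 CPM (-0.043 ± 0.012, adjusted p = 0.326).

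*Ptges* in secretory cells was at 47.3 and 14.9 CPM at 3 months and at 6.55 and 8.03 CPM at 28 months without drug (-0.080 ± 0.020, adjusted p = 0.313), and it passed when the second 3-month mouse was left out (-0.108). *Ptgs2* in basal cells went the other way, from 149 and 38.6 CPM at 3 months to 771 CPM in the 1 mouse of 28 months without drug that had enough basal cells (0.110 ± 0.040), although the 2 rapamycin mice of that age had 43.1 and 60.7 CPM. The remaining pairs were *Hpgd* in secretory cells (-0.032 ± 0.010) and *Ptgs2* in fibroblasts (0.027 ± 0.013).

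**Figure D4:**
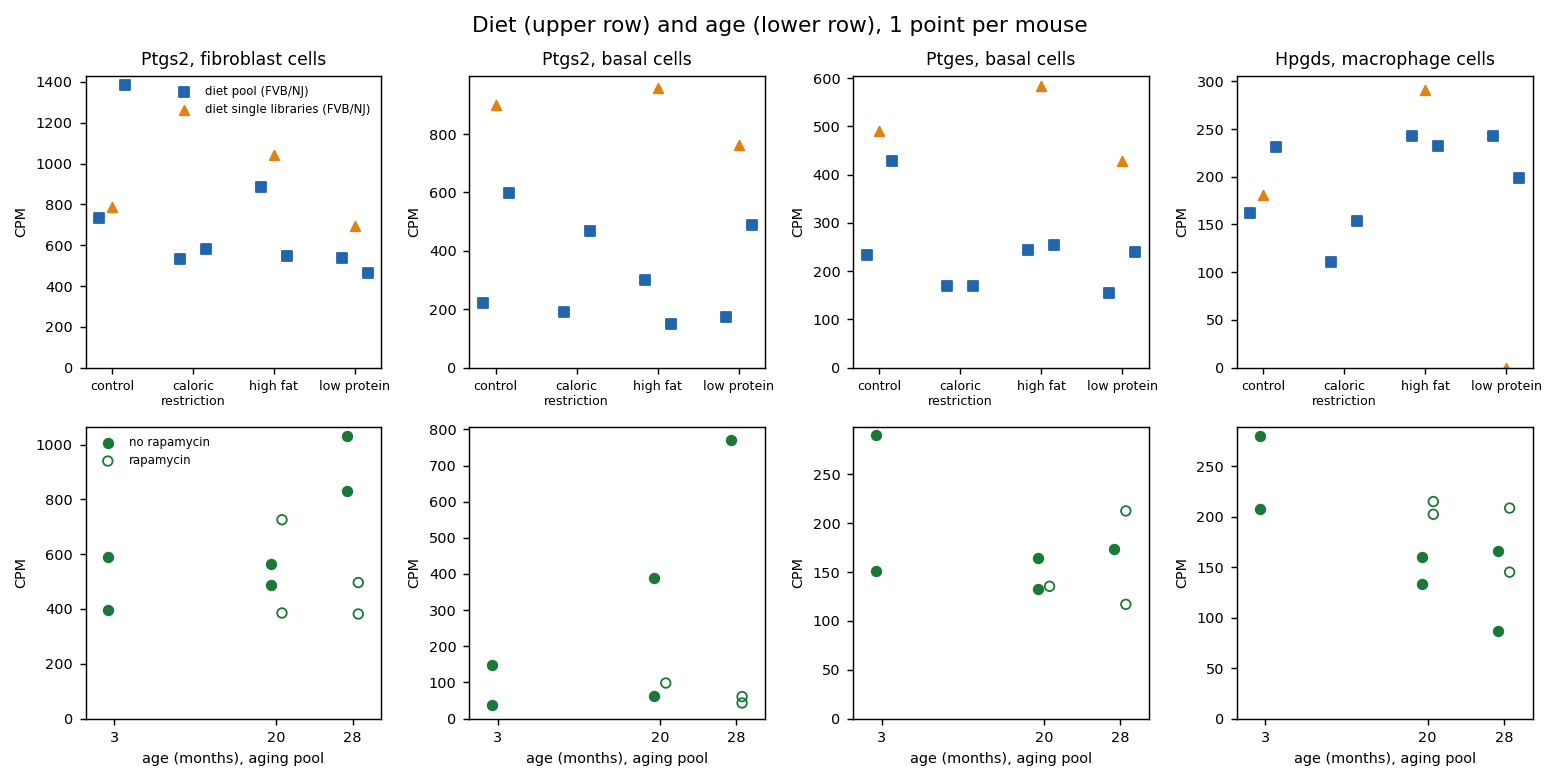
Levels in CPM (vertical axes) of Ptgs2 in fibroblasts and basal cells, Ptges in basal cells and Hpgds in macrophages, by diet (upper row) and by age in months in the aging pool (lower row), with 1 point per mouse. The orange single libraries lie above the blue pool mice for Ptgs2 and Ptges in basal cells on each of the 3 diets, and Hpgds is at 0 in the single low protein library.

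The young and old libraries held nearly all *Ptgds* RNA of the series, with 44245 and 43295 of its 90237 UMIs. Over whole libraries *Ptgds* was at 1784 CPM in the young and 1185 CPM in the old library, while the other 21 mice had a median of 11.7 CPM (1.58 to 35.5). The epididymis-like principal cells, which carry *Lcn8*, *Lcn9* or *Gpx5*, were at 2471 CPM in the young and 1545 CPM in the old library and held 56.7% of these UMIs by this gate. When all cells were clustered, the clusters of principal cells held 96.1% of the *Ptgds* UMIs in the young and 85.8% in the old library. *Ptgds* has long been known as an abundant secretion of the epididymis. *Ptgs1* was at 40.2 and 28.5 CPM in the same cells, whereas *Ptgs2* (4.59 and 5.19 CPM), *Ptges* (3.38 and 6.14 CPM) and *Hpgd* (3.02 and 3.65 CPM) were low.

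*Ptgds* was also read in the other gates of these libraries, at 305 and 384 CPM in basal cells, 387 and 470 CPM in fibroblasts and 1966 and 613 CPM in macrophages (young, old). Most of that RNA lay in few cells. The median cell of each of these gates had 0 *Ptgds* UMIs, and cells that grouped with principal cells when all cells were clustered held 97.7% and 75.0% of the *Ptgds* UMIs of the macrophage gate, from 7 of 110 and 10 of 126 cells. Without such cells the macrophage gate was at 63.5 and 214 CPM, the basal gate at 60.9 and 71.7 CPM and the fibroblast gate at 54.8 and 102 CPM. Cells of clusters that could not be named were not left out here, and these clusters were at 1176 and 2250 CPM. With classes taken from clusters, macrophages were at 43.6 and 67.2 CPM, basal cells at 61.6 and 40.8 CPM and fibroblasts at 29.9 and 58.2 CPM. A further 43 cells of the young library gated on *S100a8* and *S100a9* had a median of 114 *Ptgds* UMIs each, and 43 of 43 grouped with principal cells.

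**Figure D5:**
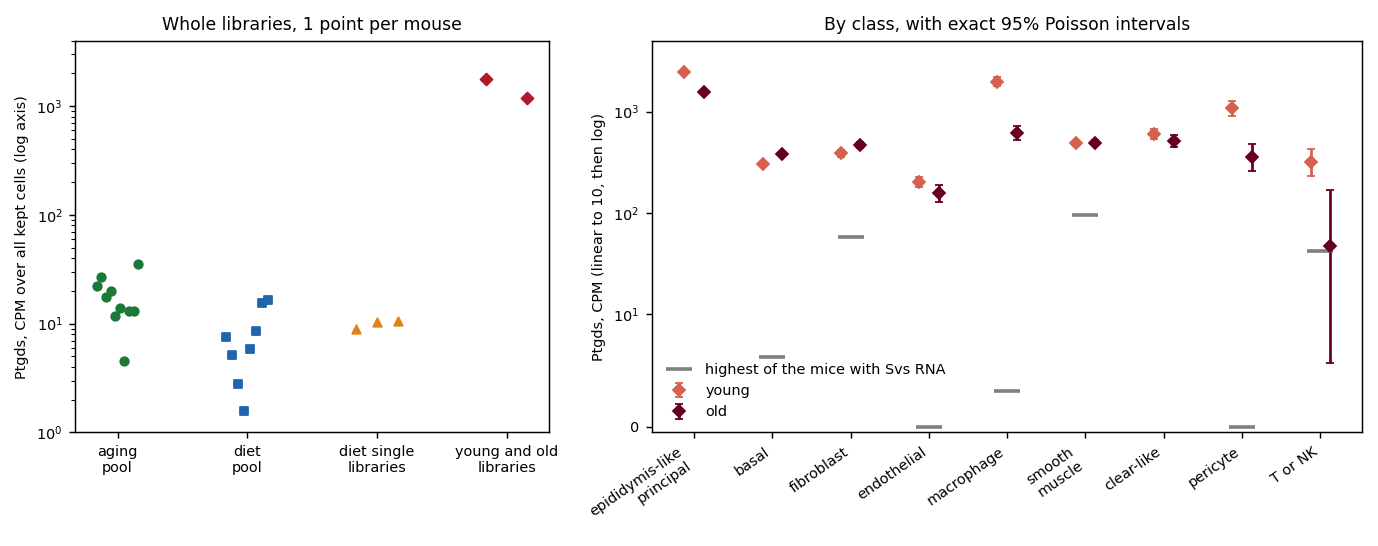
Ptgds in CPM, over all kept cells with 1 point per mouse on a log axis (left) and by gate in the young and old libraries with exact 95% Poisson intervals, which cover counting error only (right; axis linear to 10 CPM, then log), where grey bars mark the highest of the mice with Svs RNA. The young and old libraries, at 1784 and 1185 CPM, lie above all 21 other mice, whose highest value is 35.5 CPM.

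The young and old libraries were compared with the 3 diet single libraries, which share strain, library format and counting software, in the 5 classes both held. Sampling run, age, diet and the presence of epididymis-like cells move with this contrast, and their part in it was not tested. The old mouse was 18 months old and both young and old mice were on control diet, while the diet libraries were all of 3 months. Of 15 pairs tested, 6 were higher and 4 lower in the young and old libraries, where 13.1% and 11.0% of 14324 gene tests were, and DESeq2 called 9 pairs. *Ptgds* accounted for 4 of the 6. These 4 pairs, and *Ptgs1* in fibroblasts, had 0 to 4 UMIs in the diet libraries. They passed the filter on low counts through the young and old libraries alone, so the count of 6 is no result about the members. In basal cells 3813 *Ptgds* UMIs in the young and old libraries faced 2 in the diet libraries, a ratio of 241 (95% counting interval 66.7 to 1993). In macrophages 549 *Ptgds* UMIs faced 0 of 76492, at least 15.6-fold higher (floor of 3 counts over the 3 libraries). Without the cells that grouped with principal cells this bound was 1.62-fold. In smooth muscle the ratio was 16.1 (4.45 to 133, 2 UMIs in the diet libraries), and cells that grouped with principal cells held 86.2% and 85.4% of these UMIs in the young and old libraries. Without them the smooth muscle gate was at 77.4 and 99.7 CPM in place of 484 and 492 CPM. In fibroblasts, with 4 UMIs in the diet libraries, the log2 difference was 6.31 ± 0.36 by gates and 1.81 with classes taken from clusters.

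*Ptgs2* and *Ptges* were lower within the basal cells and fibroblasts of the young and old libraries. Over whole libraries both were higher there. *Ptgs2* was at 159 and 100 CPM against 27.6, 29.6 and 15.4 CPM in the control, high fat and low protein single libraries. *Ptges* was at 80.6 and 46.8 CPM against 11.6, 12.0 and 8.47 CPM. In basal cells *Ptgs2* was at 84.6 CPM in the young and 98.6 CPM in the old library against the 763 to 959 CPM given above (-3.24 ± 0.17, adjusted p = 1.6e-06), and *Ptges* at 162 and 139 CPM against 490, 583 and 428 CPM (-1.72 ± 0.17, adjusted p = 0.00012). The young and old values lay within the range of the aging pool for both genes. In fibroblasts *Ptgs2* was at 440 and 402 CPM against 788, 1041 and 694 CPM (-0.95 ± 0.22, adjusted p = 0.00582). Without the high fat library this difference was -0.75 and did not pass. *Ptges* in fibroblasts (-0.95 ± 0.28, adjusted p = 0.0231) did not pass with DESeq2, with stricter gates or without any 1 of 3 libraries (control diet, low protein diet, old).

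In fibroblasts 2 further members were called higher. *Hpgd* was at 132 and 122 CPM in the young and old libraries against a mean of 20.8 scaled CPM in the diet libraries (2.87 ± 0.36, adjusted p = 5.45e-05). *Ptgs1* was at 36.8 and 34.2 CPM, with 2 UMIs in the diet libraries (ratio 12.97, interval 3.51 to 108, log2 difference 3.68 ± 0.62). *Ptgs1* passed the filter on low counts through the young and old libraries alone, so its call is no result about it. With classes from clusters the log2 differences were 4.82 and 4.46. The fibroblast gate of the young and old libraries also held more RNA of the smooth muscle markers, 3378 to 4544 CPM against a median of 685 CPM (131 to 2327) in the 21 mice, and the median mitochondrial share of UMIs was 4.13% and 4.14% against 1.37% to 1.92% in the diet single libraries. Their part in these differences was not tested. *Ptgis* in fibroblasts did not differ detectably (0.10 ± 0.20, 286 and 320 CPM in the young and old libraries), and *Ptgs2* in smooth muscle, at 428 and 385 CPM, did not pass by gates (1.02 ± 0.55) but was called with classes from clusters (2.62).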

How the data were processed

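Seminal vesicle cells of 23 mice (7 samples) were profiled with the 10x Chromium 3′ kit. The deposited values were UMI counts per gene and cell, made by the authors with Cell Ranger 6.0.1 (pools) or 3.1.0 (single libraries) on mm10. Pool mice were matched to their multiplexing tags in 18 of 18 matrices. The 7 genes and all lists were chosen with earlier results of these data known.

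Cells with at least 500 genes, 200 UMIs and at most 10% mitochondrial UMIs were kept. Each gate needed 2 UMIs and 2 per 10000 UMIs; secretory cells needed 30% *Svs* UMIs. Cells that passed several gates without a 3-fold lead (1817) were left out as mixed, 6018 passed none, and no doublet caller was run. Counts were summed per mouse and class with at least 10 cells and tested with edgeR 4.0.16 (quasi-likelihood, TMM, filterByExpr, mouse as a block) against all other gated cells, and p-values were adjusted over every gene tested (Benjamini-Hochberg, threshold 0.05). SEs were derived from the log2 difference and its F statistic. Conditions were tested within each class, with pool or single library as a block for diet. DESeq2 1.42.0 on its own size factors was the other tool. Clusters (Leiden, leidenalg 0.10.2, members left out) gave alternative classes. CPM are per 1000000 class UMIs, and scaled CPM use TMM. Intervals and floors (3 counts) cover counting error only. Coordinates come from GENCODE on GRCm38. Besides the members, the text names the 3 genes most like each and the pathway genes with the largest called rises per class.

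On simulated counts the class fits recovered 100% of genes changed by 2 on the log2 scale in fibroblasts and in secretory cells. The condition fits recovered 77.8% (high fat, fibroblasts), 47.9% (caloric restriction, fibroblasts), 62.8% (age, macrophages) and 67.6% (young and old libraries, fibroblasts). These rates are for the same change of 2, over the changed genes that could be tested. The members' log2 differences were smaller, from -0.60 to 0.76 for high fat and from -1.04 to 1.18 for low protein diet. Recovery of such smaller changes, and in other classes, was not tested, so the rates give no power for them.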

Additional observations from a re-analysis of the deposited data

Results flagged for a closer look

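Of 47 groups of 4 to 10 mice with at least 20 UMIs of a gene, 6 had 1 mouse far from the rest by Dixon's criterion, which chance alone gives in about 1 of 20 groups. In fibroblasts of the aging pool, *Hpgd* was at 138 CPM in the second rapamycin mouse of 28 months (38 UMIs in 63 cells), and the next highest mouse was at 38.8 CPM. In macrophages of the same pool, *Ptgs1* was at 13.8 CPM in the first mouse of 20 months (3 UMIs in 55 cells), below the next at 33.9 CPM.

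The other 4 were all in the second control diet mouse of the diet pool, which had few cells. *Hpgd* in its 23 basal cells was at 0 CPM against a next lowest of 10.8 CPM, and *Ptgs1* in its 22 macrophages was at 25.7 CPM (2 UMIs) against 54.9 CPM. In its 11 smooth muscle cells *Ptgs2* was at 0 CPM against 72.8 CPM, and *Ptges* was at 274 CPM (11 UMIs) against 67.2 CPM.

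The difference of a class from the other gated cells, per mouse on plain CPM, went in opposite directions in every mouse of 2 library sets for 3 of 210 pairs of sets compared, all for *Hpgd*. In fibroblasts its median log2 difference was -0.36 in the 3 diet single libraries and 2.91 in the young and old libraries. In secretory cells it was -0.72 in the 10 mice of the aging pool and 0.85 in the 3 diet single libraries. In smooth muscle it was 1.30 in the young and old libraries and -5.09 in the 3 diet single libraries, where no *Hpgd* UMI was counted, so that this value is set by the 1 CPM added before the log and gives no size. These differences between sets were not tested.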

How the results depend on the processing

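Alternative values were counted for the 7 members in the class tests and in the contrast of the young and old with the diet single libraries. Of these, 542 kept the call and, where called, the direction, while 15 lost the call and 11 gained it. In 1 case the direction reversed, *Hpgd* in secretory cells (-0.44 by library size). Of the further pathway genes, *Akr1b3* (-0.43) and *Ptges2* (-0.65) also reversed there. Library size scaling moved the median of all genes from -0.29 to -2.40 in secretory cells and from between -0.28 and -0.08 to between 0.30 and 0.88 in the other classes, and the genes higher and lower became 158 and 8736 in place of 2679 and 4505 (secretory), 5820 and 568 (basal, from 2381 and 2998), 5535 and 716 (fibroblast, from 2404 and 3084), 4252 and 978 (endothelial, from 1951 and 3405), 2400 and 1140 (macrophage, from 1735 and 2226) and 2159 and 715 (smooth muscle, from 1291 and 1964). With it, members higher became 1 in secretory and 1 in endothelial cells, and members lower 1 in fibroblasts and 1 in smooth muscle. Members higher in secretory cells were also 1 in the diet pool alone, members lower in macrophages 1 with strict gates and in the diet pool alone, and members lower in smooth muscle 1 without the young and old libraries, where fewer members could be tested. Without the filter on low counts, genes called rose to 11437 (secretory, from 7184), 8501 (basal, from 5379), 9615 (fibroblast, from 5488), 9108 (endothelial, from 5356), 9388 (macrophage, from 3961) and 6389 (smooth muscle, from 3255), and fell in 1 pool alone, to 3308 in basal cells (aging pool) and to 3188 in endothelial cells 2614 in macrophages and 2094 in smooth muscle (diet pool), and to 1768 in smooth muscle without the young and old libraries. Genes called over all classes ranged over the alternatives from 0 to 113 for high fat diet (1), 0 to 131 for low protein diet (0), 39 to 567 for caloric restriction (51) and 0 to 613 for age (0), each highest without the filter except for caloric restriction, highest without the second restricted mouse, and were 2172 for the young and old libraries without the control diet library (3456). Without that filter 2 pairs were called for low protein diet and 3 for age (*Ptges* in secretory, *Ptgs2* in basal and *Hpgd* in macrophage cells). For caloric restriction 1 to 3 pairs were called when a mouse was left out, namely *Ptgs2* in fibroblasts (without the first control mouse), *Ptgs2* and *Ptgds* in secretory cells (without the second), *Hpgd* in basal cells (without the first restricted mouse) and *Ptgs2*, *Ptgds* and *Ptges* in secretory cells (without the second). For age, leaving out 1 mouse gave 0 to 1. Mice of the diet pool with the same number in the matrix names did not deviate together for high fat and low protein diet (r from -0.15 to 0.14 over classes) and hardly so for caloric restriction (0.01 to 0.27), so the numbers were not taken as pairs; with them as a replicate block, 1 pair was called for caloric restriction (*Ptgs2* in fibroblasts) and 0 for the other diets. Smooth muscle could not be fitted in the aging pool alone or for age, nor endothelial cells for caloric restriction, nor secretory cells for the young and old libraries. The cause of these changes was not tested. Depth limits the rarer classes most, where a few UMIs decide a mouse's level.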
